A study of Mus musculus with 20 samples.

Results

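The 10 genes described here make, or respond to, prostaglandins, thromboxane and leukotrienes, signalling lipids that are made from arachidonic acid. They are the cyclooxygenases Ptgs1 and Ptgs2, the thromboxane synthase Tbxas1, the prostaglandin D synthase Hpgds, the leukotriene genes Alox5, Alox5ap, Lta4h and Ltc4s, the lipoxygenase Alox15 and the leukotriene receptor Cysltr1. They were chosen by gene symbol, and each of the 10 was found once among the 54532 gene identifiers of the expression table. RNA was sequenced from the lungs of mice labelled wild type in 4 groups of 5 libraries, called control, model, SMD and prednisone in the labels. The series title concerns asthma and gives SMD as Shegan-Mahuang Decoction, a herbal preparation, and prednisone is a synthetic glucocorticoid. The design text names 15 mice per group. How the model was induced, the dose and length of each treatment, and the strain and age of the mice are not stated in the labels. Nor do they state whether the SMD and prednisone mice received the model treatment. The labels do not say that each library is a separate mouse, so the p-values measure the spread between these libraries, which may be technical.

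In this pathway a phospholipase frees arachidonic acid from membranes, and either a cyclooxygenase or a lipoxygenase then oxidises it. The cyclooxygenases make prostaglandin H2, which terminal synthases turn into thromboxane A2, prostacyclin and the prostaglandins. The 5-lipoxygenase Alox5, with its membrane partner Alox5ap, makes leukotriene A4, which Lta4h turns into the neutrophil attractant leukotriene B4 and Ltc4s into leukotriene C4, the first cysteinyl leukotriene. In the airways, cysteinyl leukotrienes and thromboxane contract smooth muscle, and the receptor Cysltr1 is the target of the asthma drug montelukast. Myeloid cells such as macrophages, mast cells and eosinophils are well-known sources of leukotrienes.

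Promoter windows from RefSeq (build GRCm38.p6), the 250 bases before the gene start, were at hand for 7 of the 10 genes. They were searched on both strands for 4 elements: the core of the glucocorticoid element ACANNNTGT, the C/EBP element TTGCNNAA, the E-box CACGTG and the PU.1 element GAGGAAG, which is bound by a transcription factor of myeloid cells. These elements do not overlap one another in the windows printed here. The windows of Tbxas1, Ptgs1, Hpgds and Ptgs2 held a match, and are printed 5′ to 3′ in the direction of the gene, with the matches in capitals. They lie at chr6:38918736-38918985 (plus strand), chr2:36230176-36230425 (plus strand), chr6:65144731-65144980 (minus strand) and chr1:150099781-150100030 (plus strand). Tbxas1 is shown because its level varied most between libraries, and the others because they hold the same or another of the searched elements:
Tbxas1: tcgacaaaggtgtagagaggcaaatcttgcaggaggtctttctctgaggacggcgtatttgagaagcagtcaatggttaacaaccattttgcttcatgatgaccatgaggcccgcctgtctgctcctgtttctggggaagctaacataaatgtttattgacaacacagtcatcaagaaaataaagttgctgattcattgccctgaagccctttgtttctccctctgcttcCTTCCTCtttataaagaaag
Ptgs1: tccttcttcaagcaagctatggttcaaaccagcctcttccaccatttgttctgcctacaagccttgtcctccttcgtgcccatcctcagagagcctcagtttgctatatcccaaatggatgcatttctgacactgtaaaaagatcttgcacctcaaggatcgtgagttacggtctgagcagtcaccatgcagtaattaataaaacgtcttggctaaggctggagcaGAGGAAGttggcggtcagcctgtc
Hpgds: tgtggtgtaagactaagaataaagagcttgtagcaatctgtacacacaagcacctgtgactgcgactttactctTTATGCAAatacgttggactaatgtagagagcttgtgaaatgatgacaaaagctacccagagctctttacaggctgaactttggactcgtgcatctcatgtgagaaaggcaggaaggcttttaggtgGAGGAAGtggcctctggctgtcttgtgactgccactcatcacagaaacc
Ptgs2: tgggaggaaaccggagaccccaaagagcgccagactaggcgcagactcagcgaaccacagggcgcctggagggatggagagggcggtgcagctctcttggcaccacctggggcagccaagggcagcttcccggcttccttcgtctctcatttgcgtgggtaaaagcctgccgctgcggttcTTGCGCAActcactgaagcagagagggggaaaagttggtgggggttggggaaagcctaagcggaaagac
In Tbxas1 the PU.1 element stood on the other strand, at positions -20 to -14 counted back from the gene start, in Ptgs1 at -24 to -18 and in Hpgds at -49 to -43. The C/EBP element stood at -69 to -62 in Ptgs2 and, on the other strand, at -176 to -169 in Hpgds. The windows of Alox5, Ltc4s and Lta4h held none of the 4 elements, and in these 7 windows there were 0 matches to the glucocorticoid core and the E-box. Of all 32851 mouse promoter windows of this length, 10.6% held the PU.1 element, 9.56% the C/EBP element, 5.84% the glucocorticoid core and 6.02% the E-box. Positions are counted from the RefSeq gene start. GENCODE places the start of Hpgds further upstream, and both Hpgds matches lie inside the gene in that annotation. A match is a run of letters and shows no binding.

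The 10 genes covered a wide range of levels, given here as FPKM (fragments scaled to gene length and to the mapped fragments of the library), which allows genes to be compared. Over the 20 libraries the mean was 18.9 FPKM for Ptgs1, 15.2 for Alox5ap, 13.99 for Lta4h and 8.92 for Ltc4s. It was 3.45 FPKM for Ptgs2, 2.54 for Tbxas1, 1.92 for Alox5 and 1.24 for Alox15. Cysltr1 and Hpgds were lowest, with means of 0.884 and 0.707 FPKM. Lta4h exceeded Ltc4s, and Ltc4s exceeded Ptgs2, in all 20 libraries, so these steps are larger than the spread. Alox5ap exceeded Lta4h in 12 libraries and Ptgs2 exceeded Tbxas1 in 14, so the order of these neighbours was not the same in every library. In RNA, the partner gene Alox5ap thus had several times the level of Alox5 itself, and the constitutive cyclooxygenase Ptgs1 stood above the inducible Ptgs2. Lta4h was the steadiest gene, with a coefficient of variation of 6.82%, followed by Ptgs1 with 9.62%. Tbxas1 varied most, with 66.8% and a highest library 28.7 times the lowest.

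**Figure D1:**
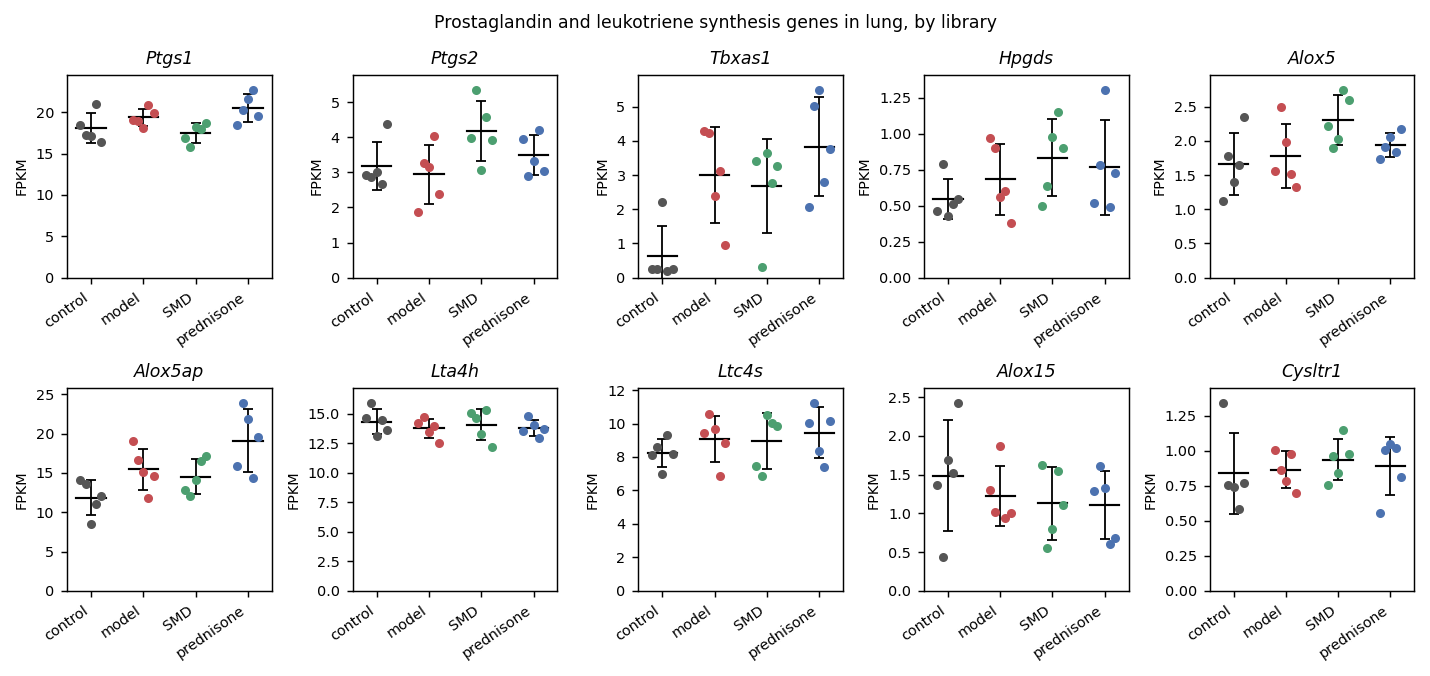
FPKM (vertical axis, from 0) of the 10 genes in each of the 20 libraries, by group; points are libraries, horizontal bars are group means and error bars are SD (n = 5), cut off at 0 for Tbxas1 in control. Tbxas1 lies at or under 0.262 FPKM in 4 of the 5 control libraries and Alox5ap is highest under prednisone, while Lta4h stays between 12.1 and 15.9 FPKM throughout.

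The tissue labels were checked first. Sftpc, the surfactant gene of alveolar type 2 cells, averaged 14018 FPKM over the 20 libraries, and Scgb1a1, the club cell secretoglobin, 47667 FPKM. Total FPKM was highest in control replicate 1 (522361) and ranged from 377639 to 446711 elsewhere, and read depth is unknown. Summed over 9 fat genes, the level was 64.1 to 748 FPKM in control, 34.5 to 388 in model, 17.1 to 39.1 in SMD and 17.9 to 100.5 in prednisone libraries, a range widest in control. In such whole-tissue RNA, fewer cells of a type and less RNA per cell cannot be told apart.

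Few of these genes differed between groups. Fold changes are given on the log2(FPKM + 1) scale with their standard error (SE) from limma, which was fitted across 15106 genes, and genes with an adjusted p under 0.05 were called. Hpgds did not reach the filter of 1 FPKM in at least 5 libraries and was not tested, so 9 members were tested. In limma, 0 of 9 were called between model and control, where 0.192% of all genes tested were called; 2 members, Tbxas1 and Alox5ap, had an unadjusted p under 0.05. Between SMD and model 0 of 9 were called, against 2.15% of all genes, and Ptgs2 and Alox5 (2 members) had an unadjusted p under 0.05. Between prednisone and model 0 of 9 were called, against 8.04% of all genes, and 0 had an unadjusted p under 0.05. Between SMD and prednisone 0 of 9 were called, against 4.59%, and Ptgs1 and Alox5ap (2 members) had an unadjusted p under 0.05. Between SMD and control 0 of 9 were called, against 1.05%, with 3 members (Tbxas1, Alox5 and Ptgs2) at an unadjusted p under 0.05. Between prednisone and control 2 of 9 were called, Alox5ap and Tbxas1, both higher under prednisone, against 3.57% of all genes, and Ptgs1 was the third with an unadjusted p under 0.05. In the same order, 15.8%, 18.9%, 23.6%, 19.5%, 14.5% and 20.7% of all genes tested had an unadjusted p under 0.05. The median log2 fold change of the 9 members was 0.06, -0.02, 0.08, 0.01, 0.10 and 0.16 in these 6 comparisons in turn, beside 0.05, -0.06, -0.05, -0.0043, -0.0038 and -0.0044 over all genes tested. The comparisons share groups and are not independent of one another.

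**Figure D2:**
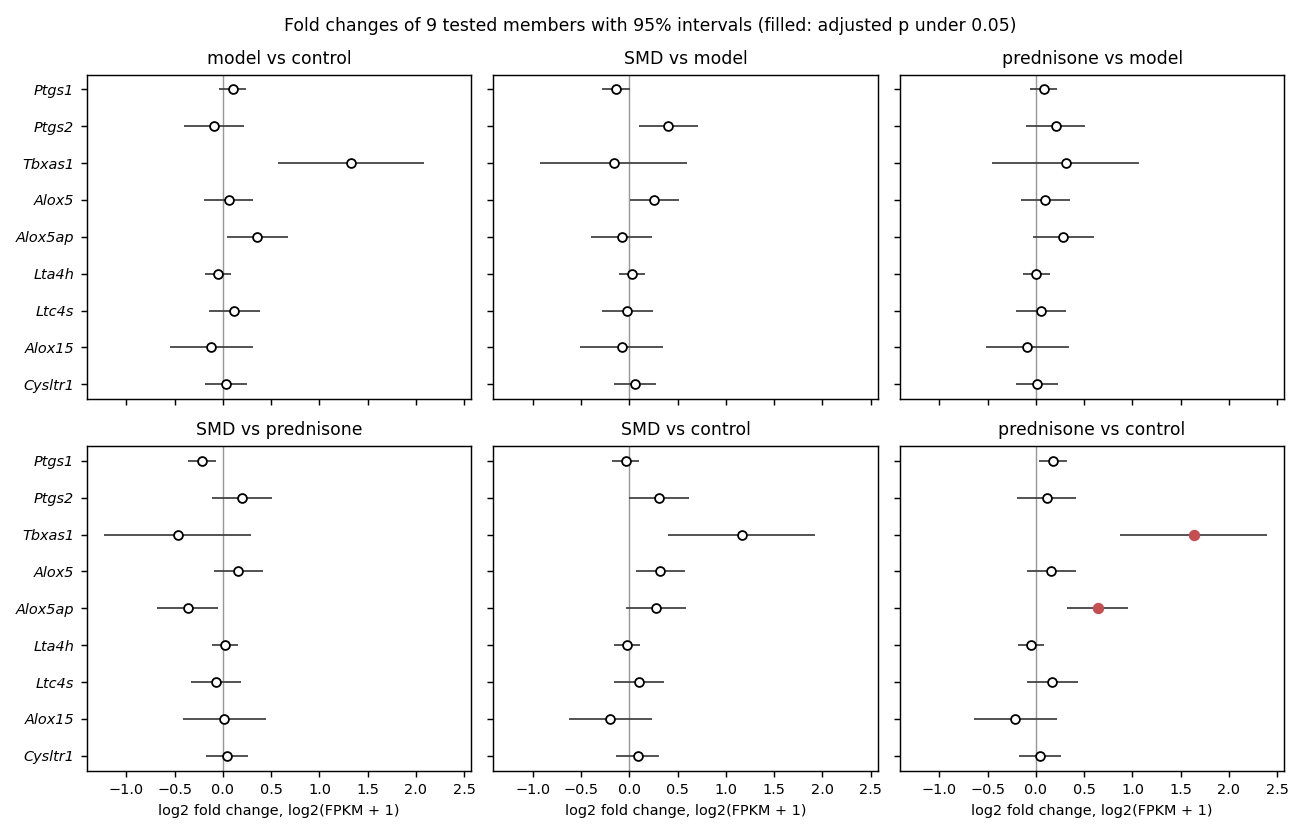
Log2 fold changes on the log2(FPKM + 1) scale (horizontal axis) of the 9 tested genes in the 6 comparisons, with 95% intervals from limma; filled points have an adjusted p under 0.05. The only filled points are Tbxas1 (1.63) and Alox5ap (0.64) between prednisone and control.

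Tbxas1, thromboxane A synthase, turns prostaglandin H2 into thromboxane A2, which constricts vessels and airways and aggregates platelets. It lies on chromosome 6 from 38875404 to 39084585 (GRCm38, plus strand). In control replicates 1 to 5 it was at 0.245, 0.262, 2.22, 0.192 and 0.255 FPKM, and in model replicates 1 to 5 at 4.29, 4.25, 2.39, 3.11 and 0.948 FPKM. Under SMD it was at 3.43, 0.297, 3.64, 2.76 and 3.26 FPKM and under prednisone at 2.08, 5.04, 5.50, 2.79 and 3.76 FPKM. Control replicate 3 stood with the other groups and SMD replicate 2 with the controls, so each treated group overlapped the control group through control replicate 3. Tbxas1 rose from 0.635 ± 0.887 FPKM in control to 3.83 ± 1.45 FPKM under prednisone (SD, n = 5 each). Its log2 fold change was 1.63 ± 0.363 (SE; adjusted p = 0.0185 in limma). With a pseudocount of 0.1 in place of 1 this log2 fold change was 2.90 (adjusted p = 0.0149). The call was lost without the filter on low values (adjusted p = 0.0558), with the fat score as a covariate (0.224, log2 fold change 1.32), and without prednisone replicate 2 (0.0560) or 3 (0.0538) in limma. In the model Tbxas1 was at 3.00 ± 1.40 FPKM, and its log2 fold change of 1.33 against control did not pass (limma adjusted p = 0.105). Under SMD it was at 2.68 ± 1.37 FPKM, with a log2 fold change of 1.16 against control that did not pass (adjusted p = 0.122 in limma; 1.51 with an adjusted p of 0.0475 without SMD replicate 2). Neither treatment passed against the model in limma: the log2 fold change was -0.16 (95% interval -0.92 to 0.60) for SMD and 0.31 (-0.45 to 1.07) for prednisone. In the annotation, the ends of Tbxas1 and Hipk2 overlap on opposite strands without shared exons, and Tbxas1 shares exon bases with the antisense gene Gm42962 (mean 0.0208 FPKM). The labels do not say whether reads were counted by strand, so reads of Gm42962 and Tbxas1 in the shared bases cannot be told apart. The Tbxas1 window printed above lies inside the gene as GENCODE annotates it.

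The other genes of the cyclooxygenase branch did not pass in any of the 6 comparisons. Ptgs1, the constitutive cyclooxygenase (chromosome 2, 36230426 to 36252272, plus strand), was at 18.5, 17.3, 17.2, 21.02 and 16.4 FPKM in the 5 control libraries and at 19.1, 18.96, 18.1, 20.9 and 19.9 FPKM in the model. It was at 16.9, 15.8, 18.2, 18.01 and 18.7 FPKM under SMD and at 18.5, 20.3, 21.7, 22.8 and 19.5 FPKM under prednisone. The SMD libraries lay at the lower end and the prednisone libraries at the upper end, with an overlap between SMD replicate 5 and prednisone replicate 1. The means were 17.5 ± 1.18 and 20.5 ± 1.69 FPKM, and the log2 fold change between SMD and prednisone was -0.22 ± 0.0688 (SE; limma adjusted p = 0.0785). It passed with quantile normalization (adjusted p = 0.0492) or without control replicate 4 (0.0461) in limma. Prednisone against control gave 0.18 (adjusted p = 0.150).

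Ptgs2, the cyclooxygenase known to be induced by cytokines and repressed by glucocorticoids (chromosome 1, 150100031 to 150108227, plus strand), was at 2.93, 2.86, 3.01, 2.68 and 4.39 FPKM in control and 1.88, 3.28, 3.14, 4.05 and 2.38 FPKM in the model. It was at 3.98, 5.36, 3.06, 4.57 and 3.91 FPKM under SMD and 3.96, 2.91, 3.31, 4.22 and 3.05 FPKM under prednisone. Ptgs2 had its highest mean under SMD (4.18 ± 0.851 FPKM) and its lowest in the model (2.95 ± 0.839 FPKM), and the groups overlapped. The log2 fold change between SMD and model was 0.40 ± 0.147 (SE; limma adjusted p = 0.143). Between prednisone and model it was 0.20, with a 95% interval of -0.11 to 0.51 (adjusted p = 0.444 in limma), and between model and control -0.09 (-0.40 to 0.22). Of 14 genes known to be induced by glucocorticoids, limma called 0 between prednisone and model, against 8.04% of all genes. Between SMD and model 8 of the 14 were lower and 0 higher, against 2.15% of all genes. What this means for Ptgs2 was not tested.

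Hpgds, the haematopoietic prostaglandin D synthase (chromosome 6, 65117293 to 65144908, minus strand), was at 0.463, 0.785, 0.428, 0.511 and 0.549 FPKM in control and 0.971, 0.901, 0.559, 0.599 and 0.377 FPKM in the model. It was at 0.495, 0.636, 0.979, 1.15 and 0.902 FPKM under SMD and 0.519, 0.784, 1.31, 0.489 and 0.728 FPKM under prednisone. Only SMD replicate 4 and prednisone replicate 3 reached 1 FPKM, and all 4 groups overlapped. In the limma fit without a filter, its adjusted p lay between 0.582 (SMD against control, log2 fold change 0.24) and 0.947.

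Among the leukotriene genes, Alox5ap was the one that was called. Alox5ap encodes FLAP, the membrane protein that presents arachidonic acid to 5-lipoxygenase, and lies on chromosome 5 from 149264767 to 149288153 (plus strand). It was at 14.1, 13.6, 8.55, 11.03 and 12.1 FPKM in the 5 control libraries and at 19.05, 16.6, 15.1, 11.8 and 14.6 FPKM in the model. Under SMD it was at 12.8, 12.02, 14.1, 16.5 and 17.1 FPKM and under prednisone at 15.8, 23.9, 21.9, 14.4 and 19.6 FPKM. Every prednisone library lay above every control library, as was the case in either direction for 5.58% of all genes tested, while the model and SMD libraries overlapped both groups. Alox5ap rose from 11.9 ± 2.22 FPKM in control to 19.1 ± 3.99 FPKM under prednisone (SD, n = 5 each). The log2 fold change was 0.64 ± 0.150 (SE; limma adjusted p = 0.0247). The call was lost in limma without the filter (adjusted p = 0.0638), with the fat score (0.183) and with only the 2 groups compared (0.0681). The log2 fold change was 0.61 with the fat score and 0.64 in the other 2 settings. It was also lost without control replicate 3 (0.0549) or 4 (0.0543) and without prednisone replicate 2 (0.0780) or 3 (0.0658). In the model Alox5ap was at 15.4 ± 2.66 FPKM, with a log2 fold change of 0.36 against control that did not pass (adjusted p = 0.258 in limma). SMD, at 14.5 ± 2.23 FPKM, differed from the model by -0.08 (95% interval -0.40 to 0.23) and from prednisone by -0.37 (limma adjusted p = 0.181). Prednisone differed from the model by 0.28 (-0.03 to 0.60, adjusted p = 0.265 in limma).

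Alox5, the 5-lipoxygenase itself (chromosome 6, 116410077 to 116461178, minus strand), was at 1.13, 1.79, 1.40, 1.65 and 2.35 FPKM in control and 1.55, 2.49, 1.98, 1.51 and 1.33 FPKM in the model. It was at 2.21, 1.90, 2.03, 2.75 and 2.61 FPKM under SMD and 1.74, 1.91, 2.05, 1.84 and 2.17 FPKM under prednisone. The SMD libraries were the highest group on average, at 2.30 ± 0.367 FPKM, but overlapped all others. The log2 fold change of SMD was 0.26 against the model and 0.32 against control (limma adjusted p = 0.252 and 0.209). Under prednisone Alox5 did not follow its partner past the threshold: its log2 fold change against control was 0.16 (95% interval -0.09 to 0.41, adjusted p = 0.481 in limma).

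Lta4h and Ltc4s, which divide leukotriene A4 between them, did not pass in any comparison. Lta4h, leukotriene A4 hydrolase (chromosome 10, 93453411 to 93484875, plus strand), was at 14.6, 15.9, 13.1, 14.4 and 13.6 FPKM in control and 14.2, 14.7, 13.5, 13.9 and 12.5 FPKM in the model. It was at 15.04, 14.6, 13.3, 15.3 and 12.1 FPKM under SMD and 13.5, 14.8, 14.01, 12.9 and 13.7 FPKM under prednisone. These values overlapped in all groups, and its 95% intervals in the 6 comparisons all lay between -0.19 and 0.16 on the log2 scale. Ltc4s, leukotriene C4 synthase (chromosome 11, 50236461 to 50238616, minus strand), was at 8.14, 8.60, 6.96, 9.31 and 8.16 FPKM in control and 9.43, 10.5, 9.66, 6.88 and 8.82 FPKM in the model. It was at 7.48, 6.87, 10.5, 10.1 and 9.87 FPKM under SMD and 10.03, 11.2, 8.37, 7.41 and 10.2 FPKM under prednisone. Every group spread over a similar range, and the log2 fold change furthest from 0 was 0.17 between prednisone and control (95% interval -0.09 to 0.43, limma adjusted p = 0.466). Ltc4s shares exon bases with the antisense gene Gm26542 (mean 0.636 FPKM), whose reads cannot be told apart from its own without strand. The same limit holds for Alox5ap with Gm19719 (0.047 FPKM) and Ptgs1 with Gm43621 (0.428 FPKM), both on the other strand.

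Alox15, the mouse lipoxygenase that oxygenates arachidonic acid at other carbons than Alox5 and is known from eosinophils and resident macrophages (chromosome 11, 70344152 to 70352031, minus strand), was at 1.36, 0.440, 1.69, 1.52 and 2.42 FPKM in control and 1.30, 1.02, 1.87, 0.939 and 1.01 FPKM in the model. It was at 1.63, 0.549, 0.798, 1.55 and 1.11 FPKM under SMD and 1.29, 1.61, 1.33, 0.604 and 0.684 FPKM under prednisone. The control libraries alone spanned 0.440 to 2.42 FPKM, more than the other groups. Its log2 fold changes lay between -0.21 and 0.01, with 95% intervals as wide as -0.64 to 0.22 for prednisone against control. Cysltr1, the cysteinyl leukotriene receptor (chromosome X, 106574346 to 106603679, minus strand), was at 1.34, 0.759, 0.743, 0.586 and 0.770 FPKM in control and 1.00, 0.865, 0.782, 0.982 and 0.697 FPKM in the model. It was at 0.760, 0.962, 0.844, 1.15 and 0.976 FPKM under SMD and 0.558, 1.01, 1.05, 1.02 and 0.811 FPKM under prednisone. It reached 1 FPKM in 6 of 20 libraries, and its log2 fold changes lay between 0.01 and 0.08, none of which passed.

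Some macrophage markers rose in the comparison in which both genes were called, prednisone against control, and other cell types had called markers too. In limma 4 of 6 smooth muscle and 2 of 6 endothelial markers fell there, and 1 of 5 airway epithelium markers rose, against 3.57% of all genes. All 6 smooth muscle and all 6 endothelial markers had an unadjusted p under 0.05. The summed level of 5 interstitial macrophage markers (C1qa, C1qb, C1qc, Cx3cr1 and Csf1r) was 58.0 to 67.8 FPKM in control, 72.9 to 117 in model, 65.6 to 89.3 in SMD and 69.5 to 106 in prednisone libraries. Between prednisone and control 2 of the 5 rose (3.57% of all genes were called), the complement genes C1qa (22.5 to 32.7 FPKM) and C1qc (13.5 to 20.3 FPKM). Between model and control 1 did (0.192% of all genes), C1qa. C1qb, Csf1r and Cx3cr1 did not pass between prednisone and control, with means of 13.3 and 19.8 FPKM, 12.1 and 15.03 FPKM, and 1.23 and 1.22 FPKM in control and prednisone. The summed level of 7 alveolar macrophage markers was 113 to 125.5 FPKM in control, 114 to 167 in model, 118 to 193 in SMD and 127 to 229 in prednisone libraries. Of the 6 that were tested, 3 rose between prednisone and control: Chil3 (32.5 to 64.5 FPKM), the mannose receptor Mrc1 (8.96 to 12.6 FPKM) and Plet1 (20.1 to 28.2 FPKM). Ear2, Pparg and Krt79 did not pass, with means of 54.8 and 78.7 FPKM, 3.28 and 2.72 FPKM, and 0.920 and 0.830 FPKM. Marco was not tested. Chil3, Ear2 and Plet1 hold most of the alveolar sum. None of the 12 markers was at 0 in any library. The summed levels of 7 neutrophil markers (43.6 to 103 FPKM in control, 58.1 to 88.5 in model, 56.0 to 76.4 in SMD and 47.5 to 84.0 in prednisone libraries) and 8 platelet markers (22.9 to 33.3, 21.6 to 34.1, 19.7 to 28.4 and 20.2 to 32.6 FPKM) overlapped between all groups. The 8 mast cell markers summed to 23.0 to 25.6, 18.9 to 23.8, 17.8 to 27.6 and 18.2 to 25.1 FPKM, most of it from Kit (mean 18.9 FPKM). The mast cell protease gene Cma1 averaged 1.31, 1.53, 0.899 and 1.12 FPKM in the 4 groups, and Kit 20.5, 17.3, 21.02 and 16.8 FPKM. The 5 eosinophil markers summed to 1.21 to 3.23 FPKM over all libraries, most of it from Siglecf (mean 2.08 FPKM). Epx, eosinophil peroxidase, was at 0 in 9 of the 20. The filter left 2 of the 8 mast cell, 1 of the 5 eosinophil, 5 of the 7 neutrophil and 4 of the 8 platelet markers to test. In limma 0 of these were called between prednisone and control. An unadjusted p under 0.05 was found for 1 mast cell marker and for Siglecf, the 1 tested gene of the eosinophil list. Siglecf averaged 1.62 FPKM in control and 2.52 FPKM under prednisone. Epx, Prg2, Ccr3 and Il5ra, the rest of that list, were not tested, and none had a higher mean under prednisone. Their means were 0.0148, 0.135, 0.0482 and 0.207 FPKM in control and 0.0082, 0.107, 0.0408 and 0.197 FPKM under prednisone. The eosinophil sum is thus mostly a level of Siglecf. The part of these cells in the values of Alox5ap and Tbxas1 was not tested.

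**Figure D3:**
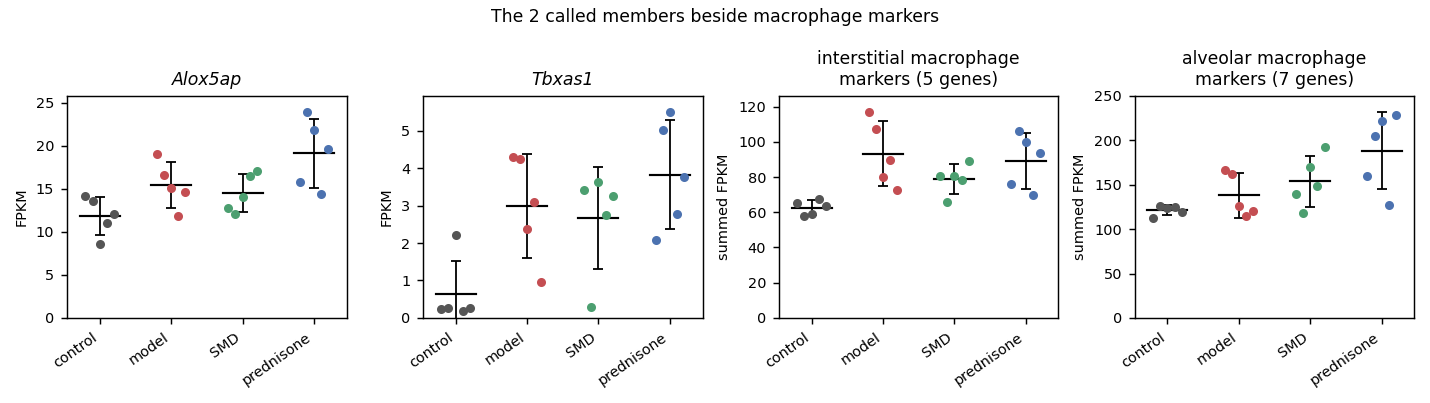
FPKM of Alox5ap and Tbxas1, and summed FPKM of 5 interstitial and 7 alveolar macrophage markers (vertical axes, from 0), in each library by group; bars are means with SD (n = 5), the error bar of Tbxas1 in control being cut off at 0. The control libraries span 58.0 to 67.8 FPKM for interstitial macrophage markers, against 69.5 to 106 FPKM under prednisone and 72.9 to 117 FPKM in the model.

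The genes whose pattern was most like that of each member were found by Pearson's r of log2(FPKM + 1) over all 20 libraries, and the r of deviations from group means is given beside it. For Alox5ap they were Ly86 (r = 0.878, 0.789 within groups), Laptm5 (0.871 and 0.788) and Il18 (0.871 and 0.761). For Tbxas1 they were Ticam2 (0.850 and 0.664), Fcgr3 (0.848 and 0.733) and Saa3 (0.840 and 0.718). For Ptgs2 they were Nr4a2 (0.836 and 0.896), Pdlim3 (0.810 and 0.818) and Ccn1 (0.789 and 0.831). For Ptgs1 the closest was Slc25a47 (0.831 and 0.687), then Neurl1b and Brms1l, and for Alox5 it was Nt5c3b (0.790 and 0.749), then Ammecr1l and Rfx5. For Ltc4s it was Kalrn (0.875 and 0.874), then Rnf227 and Ccdc163, and for Lta4h Flt4 (0.760 and 0.758), then Cd5 and Gngt2. For Alox15 it was Prg4 (0.861 and 0.884), then Supt3 and Aspa, and for Cysltr1 Med25 (0.736 and 0.785), then Creb3l1 and Cdc23. These are the highest of 15106 genes in the same 20 libraries and describe likeness only.

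The other genes of the pathway were taken from 5 lists of 56 genes in all, of which 36 were tested. The most abundant were Hpgd, which inactivates prostaglandins (mean 157 FPKM over 20 libraries), with the prostaglandin transporter Slco2a1 (34.4 FPKM) in the list of breakdown and transport. Among prostanoid synthases Ptges3 (54.5 FPKM) and Akr1b3 (47.7 FPKM) led, and among leukotriene-converting and lipoxygenase genes Dpep1 (27.3 FPKM) and Mgst3 (16.6 FPKM). In the list of arachidonate release Mgll (16.7 FPKM) and Pla2g1b (12.02 FPKM) led, and among receptors Ptger1 (2.73 FPKM) and Ptger2 (2.57 FPKM).

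Between prednisone and model, 5 of these 36 genes fell and 0 rose, where 8.04% of all genes tested were called. Over all genes the calls also lay mostly on the lower side, with 1077 lower and 138 higher. The 5 were 3 of 7 prostanoid synthases, 1 of 9 receptors and 1 of 8 genes of arachidonate release, with 0 of 6 in each of the other lists. The median log2 fold change of the 36 was -0.12, beside -0.05 over all genes. Tbxa2r, the thromboxane receptor, was at 2.40, 3.60, 3.14, 2.53 and 2.50 FPKM in the model and at 1.23, 1.66, 1.72, 1.64 and 2.14 FPKM under prednisone, without overlap. It fell by 0.52 on the log2 scale (limma adjusted p = 0.0115). Ptgis, prostacyclin synthase of vessel walls, was at 33.5, 32.8, 33.8, 31.6 and 36.7 FPKM in the model and 28.9, 26.1, 19.9, 25.8 and 25.7 FPKM under prednisone, again without overlap, and fell by 0.41 (adjusted p = 0.00715 in limma). Of all genes tested, 7.58% had no overlap between these groups. Prxl2b, a prostamide and prostaglandin F synthase listed in the table as Fam213b, fell from 9.91 ± 1.65 to 6.68 ± 0.698 FPKM (adjusted p = 0.0224 in limma). Akr1b3, the aldose reductase that can also make prostaglandin F, fell from 54.5 ± 5.86 to 43.6 ± 2.89 FPKM (0.0141), and Mgll, monoacylglycerol lipase, from 17.3 ± 1.25 to 13.5 ± 1.40 FPKM (0.0392). Of the 5, Tbxa2r alone was also called with quantile normalization, where the log2 fold change of Akr1b3 was -0.16. With the fat score, Tbxa2r and Ptgis were still called, and without the filter these and Akr1b3. The call of Prxl2b was lost without model replicate 2 (adjusted p = 0.0660) or 3 (0.0562) or prednisone replicate 1 (0.0503), and that of Mgll without any model replicate except 4 or any prednisone replicate except 5 (0.0558 to 0.0939 in limma). Mgll was not called with the replicate block (0.0659) or median-of-ratios scaling (0.0692) either. Smooth muscle markers were lower in the same libraries: 6 of them summed to 153 to 204 FPKM in the model and 113 to 161 FPKM under prednisone, and Acta2 and Des (2 of 6) fell. Of 6 endothelial markers limma called 0 between prednisone and model, with 1 at an unadjusted p under 0.05. They summed to 369 to 416 FPKM in the model and 299 to 384 FPKM under prednisone. The part of smooth muscle and endothelium in the fall of Tbxa2r and Ptgis was not tested.

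Between SMD and model, 1 of the 36 fell and 0 rose, where 2.15% of all genes were called (288 lower and 37 higher). The median of the 36 was -0.09 beside -0.06 over all genes. The gene was Ptgis, at 23.3, 27.2, 22.5, 25.98 and 23.5 FPKM under SMD, below every model library, where 4.62% of all genes tested had no overlap between SMD and model. Ptgis fell from 33.7 ± 1.86 to 24.5 ± 2.00 FPKM, by 0.45 on the log2 scale (limma adjusted p = 0.00892). The call was lost with quantile normalization (adjusted p = 0.0653) and with the fat score (0.0845) in limma, with log2 fold changes of -0.33 and -0.44. Here 0 of 6 smooth muscle markers were called, and their summed level was 161 to 194 FPKM under SMD. Of the 6 endothelial markers 0 were called as well, with a summed level of 361 to 501 FPKM under SMD. Ptgis differed by -0.04 on the log2 scale between SMD and prednisone (adjusted p = 0.853 in limma).

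**Figure D4:**
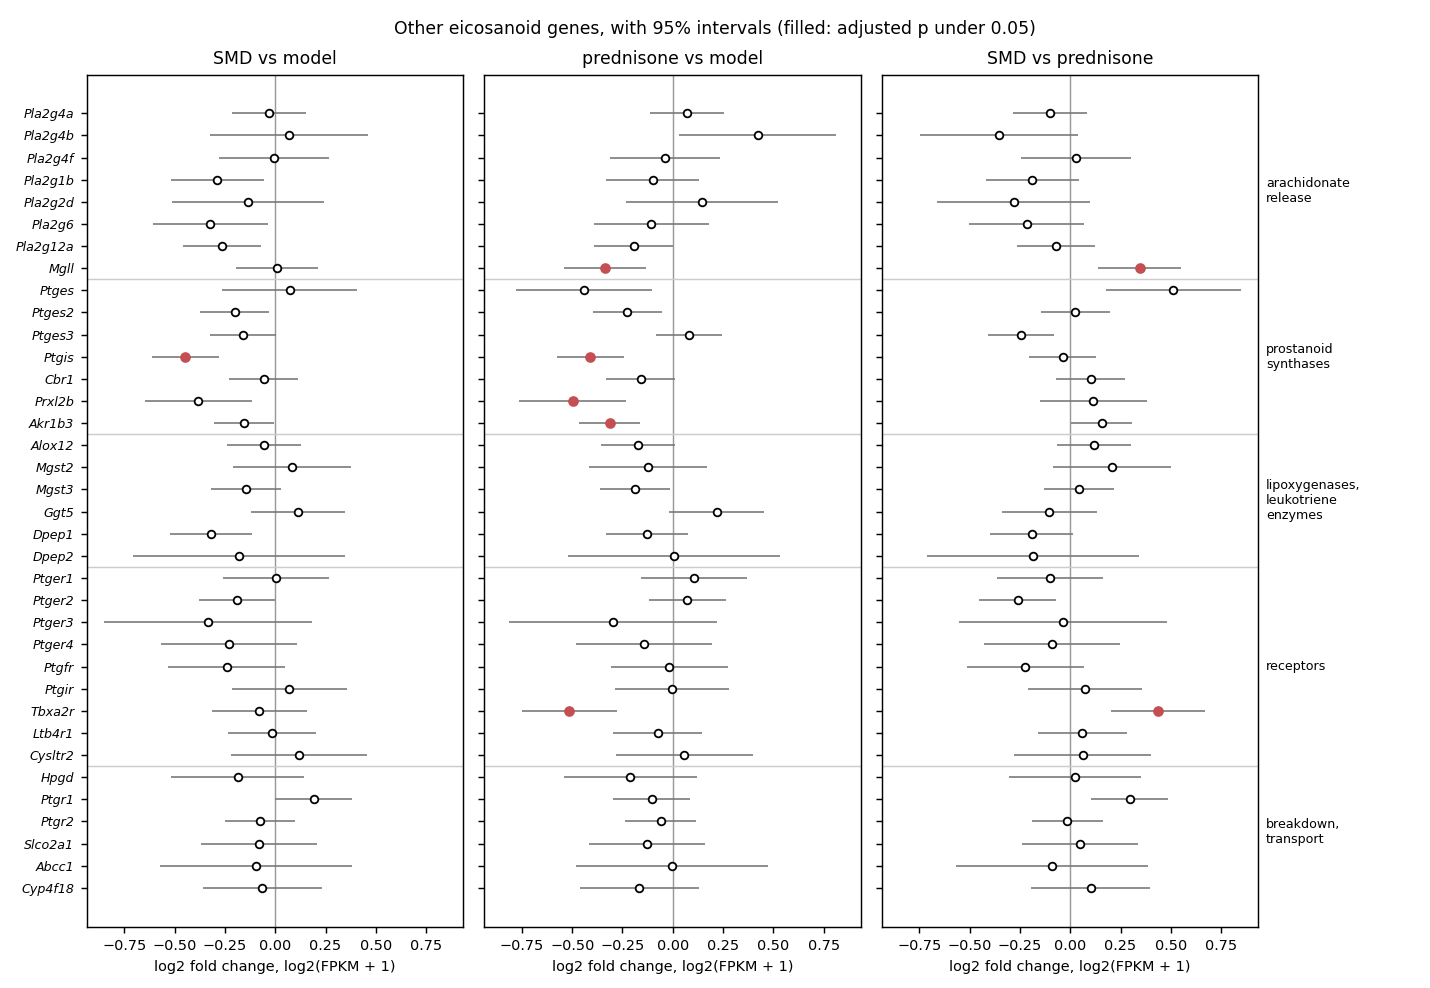
Log2 fold changes on the log2(FPKM + 1) scale (horizontal axes) with 95% intervals of the 36 tested genes of the 5 wider lists, grouped by list, in the 3 comparisons among model, SMD and prednisone; filled points have an adjusted p under 0.05 in limma. There is 1 filled point between SMD and model (Ptgis), 5 between prednisone and model, and 2 between SMD and prednisone.

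Between SMD and prednisone, 2 of the 36 were higher under SMD and 0 were lower, where 4.59% of all genes were called. Tbxa2r was at 2.20, 2.38, 2.29, 3.15 and 3.11 FPKM under SMD, above every prednisone library, with a log2 fold change of 0.44 (limma adjusted p = 0.0316). Mgll was at 18.9, 16.5, 16.1, 20.4 and 15.5 FPKM under SMD and 14.02, 12.1, 13.7, 12.2 and 15.5 FPKM under prednisone, with a log2 fold change of 0.35 (adjusted p = 0.0496 in limma). The lowest SMD and the highest prednisone library of Mgll nearly touched. The 2 groups did not overlap for 6.08% of genes tested. Both calls were lost without the filter (limma adjusted p = 0.0697 for Tbxa2r and 0.111 for Mgll) and with only the 2 groups compared (0.0671 and 0.0664), and that of Mgll also with the replicate block (0.0817). Without SMD replicate 4 or 5 or prednisone replicate 1, 2 or 4 the adjusted p of Tbxa2r was 0.0579 to 0.0854 in limma. That of Mgll was 0.0510 to 0.124 without any 1 of 16 libraries, the exceptions being replicate 4 of control and model and replicate 5 of SMD and prednisone.

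Against control, prednisone gave 1 higher and 1 lower of the 36, where 3.57% of all genes were called. Ptger2, the prostaglandin E receptor EP2 that relaxes airway muscle, was at 1.83, 2.39, 2.31, 1.84 and 2.38 FPKM in control and 2.57, 3.42, 2.78, 2.67 and 3.57 FPKM under prednisone, and rose by 0.34 (limma adjusted p = 0.0424). Mgll fell from 18.7 ± 3.25 to 13.5 ± 1.40 FPKM, by 0.43 (adjusted p = 0.0215 in limma). Both calls were lost without the filter (limma adjusted p = 0.0790 for Ptger2 and 0.0544 for Mgll), with only the 2 groups compared (0.0990 and 0.0722) and with the fat score (0.431 and 0.261). Ptger2 was not called with the replicate block either (0.0618), nor without control replicate 1, 2, 3 or 4, prednisone replicate 2, 3 or 5, model replicate 2 or SMD replicate 5 (0.0502 to 0.115 in limma). Mgll was not called without prednisone replicate 2 (0.0681). Between model and control limma called 0 of the 36 (8 at an unadjusted p under 0.05, 7 of them higher, beside 15.8% of all genes). Between SMD and control it called 0 (10 at an unadjusted p under 0.05, beside 14.5% of all genes).

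**Figure D5:**
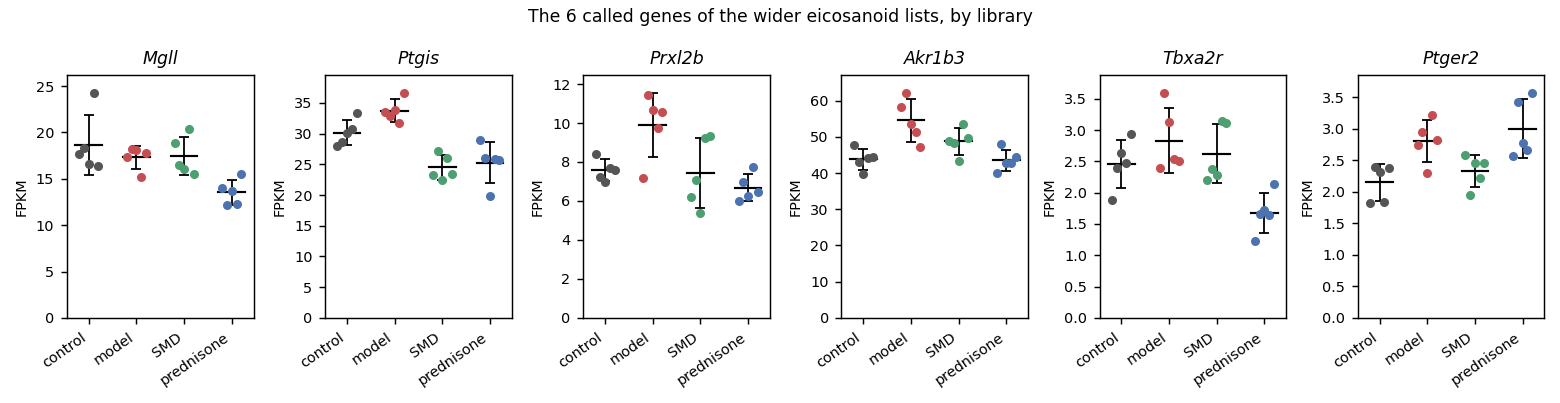
FPKM (vertical axes, from 0) of the 6 genes of the wider lists that were called in at least 1 comparison, in each library by group; bars are means with SD (n = 5). Ptgis lies at 31.6 FPKM or more in the model and at 28.9 FPKM or less under SMD and prednisone, and Tbxa2r is lowest under prednisone.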

How the data were processed

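RNA of 20 mouse lung samples was sequenced as paired reads from NEBNext Ultra libraries on a NovaSeq instrument, per the labels' protocols. The authors deposited a table of FPKM values, 1 per gene and sample. They used fastp, HISAT2, featureCounts and DESeq2 with build GRCm38, per the submitters' processing notes. Which of these made the FPKM values, and with which annotation and strand setting, the labels do not say. Of 54532 identifiers, 54409 were paired with a symbol, and positions come from GENCODE.

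Groups and replicate numbers come from the treatment labels, except the number of prednisone replicate 5, which comes from its title. The titles pair each sample with its column. FPKM values hold no counts: in 21360 single-exon genes, 12.6% to 15.7% of the low values were whole multiples of a common step (tolerance 0.05), where chance gives 10%. Depth is therefore unknown, and errors rest on the spread between libraries alone.

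Values were analysed as log2(FPKM + 1), which understates the change of genes with low values. Genes with 1 FPKM or more in at least 5 of 20 libraries (15106) entered 1 limma fit (3.58.1, R 4.3.3; eBayes with trend, 4 group means, no covariate, 16 residual and 19.1 moderated degrees of freedom). Tests were two-sided and adjusted (Benjamini-Hochberg) across every gene tested, and 6 comparisons were made. The fit was tested on simulated data. The members and gene lists were chosen with earlier results of these data known. A marker gene was taken out of its list afterwards and is not reported here. All 10 members are given in every library, with every called gene of the wider lists, the 2 most abundant genes of each list, and the 3 genes most like each tested member (no predicted genes or pseudogenes). Alternatives were a pseudocount of 0.1, no filter, a filter on the mean, median-of-ratios scaling, quantile normalization, only the 2 groups compared, the replicate number as a block, a fat score (the mean log2 level of 9 fat genes) as a covariate, and leaving out each library. Promoter windows come from RefSeq, GRCm38.p6. A group's library was looked at more closely where its gap to the nearest other exceeded 0.710 of the group's range (Dixon's test, 40 groups of 5).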

Additional observations from a re-analysis of the deposited data

Results flagged for a closer look

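Each of the 10 genes was looked at in each of the 4 groups for a single library far from the other 4 (Dixon's test at 95%). Of these 40 groups 4 were flagged, and chance flags about 1 in 20. Tbxas1 in control replicate 3 was at 2.22 FPKM, where the nearest other control library was at 0.262 FPKM. Tbxas1 in SMD replicate 2 was at 0.297 FPKM, where the nearest other SMD library was at 2.76 FPKM. Ptgs2 in control replicate 5 was at 4.39 FPKM, with the nearest other control library at 3.01 FPKM. Cysltr1 in control replicate 1 was at 1.34 FPKM, with the nearest at 0.770 FPKM; the FPKM values of that library had the highest sum of the 20. Without control replicate 3, the log2 fold change of Tbxas1 between prednisone and control was 1.91 in limma (adjusted p = 0.00907), and with all libraries 1.63.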

How the results depend on the processing

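All counts here are limma calls at an adjusted p under 0.05. Over 8 alternative settings, 414 of 420 member values (54 fold changes) kept their side of the threshold; 5 lost and 1 gained a call, and 7 uncalled values changed sign. Leaving out 1 library, 1072 of 1080 did, and 39 uncalled values changed sign. No called value changed direction. The 2 members called between prednisone and control became 0 with the fat score and with no filter (in each, 3 had an unadjusted p under 0.05), 1 with only the 2 groups compared, and 0 to 2 when 1 library was left out. Members called between SMD and prednisone, 0 of 9, were 1 with quantile normalization and 0 to 1 when 1 library was left out. Those between SMD and control, also 0 of 9, were 0 to 1 when 1 library was left out, and quantile normalization added none.

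For the wider lists, the 1 called gene between SMD and model became 0 with quantile normalization (5 at an unadjusted p under 0.05) and with the fat score (4), and 1 to 2 when 1 library was left out. The 5 between prednisone and model became 3 with no filter, 1 with quantile normalization, 2 with the fat score, and 3 to 6 when 1 library was left out. The count of 2 between SMD and prednisone became 0 with no filter (10 at an unadjusted p under 0.05), 4 with quantile normalization, and 0 to 3 when 1 library was left out. With only the 2 groups compared it was 1, a gene other than Tbxa2r and Mgll, which both lost their call. The 2 between prednisone and control became 0 with no filter, with the fat score or with only the 2 groups compared (15, 6 and 10 had an unadjusted p under 0.05), 4 with median-of-ratios scaling or quantile normalization, and 0 to 5 when 1 library was left out. With 1 library left out, 0 to 1 were called between model and control and between SMD and control. The cause of these shifts was not tested. Counts over all genes moved too, for example from 540 to between 74 and 741 for prednisone against control over the 8 settings and from 29 to between 0 and 28 for model against control.

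Over 30 pairs of same-numbered libraries the correlation of deviations from the group means was -0.18 to 0.237, with 6 over 0.1. The median was -0.004, beside 0.004 for differently numbered pairs, so same-numbered libraries were not more alike in the median. The spread of the differently numbered pairs was not recorded, so pairing of single libraries cannot be judged. With the replicate block, 1 gene of the wider lists was called between SMD and prednisone and 1 between SMD and control, and no count of members changed. Prednisone replicate 5 carries the same treatment label as prednisone replicate 1, and its title was used for the number. Unknown depth limits what can be said of Hpgds, Cysltr1 and Alox15, the genes with the lowest mean levels. It also limits Tbxas1, which was at 0.192 to 0.262 FPKM in the control libraries other than replicate 3, the lowest values of any member. Tbxas1 reached 1 FPKM in 1 control library, against 4 in the model, 4 under SMD and 5 under prednisone. Its fold changes against control therefore rest on control values near the floor.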
